A study of Rattus norvegicus with 34 samples.

Results

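The transcription factors Foxj1, Hoxa2, Pax9 and Foxc2, the Wnt ligand Wnt10b and the Wnt receptor Fzd3 were followed across rat embryos, fetal tissues and maternal liver exposed to a calcium sensitizer or to retinoic acid. They are 6 of the 239 named probes of a small 2-colour cDNA array. Each was found by the gene name beside its grid position in the spot files, where Foxj1 is written HFH4, Foxc2 is written MFH1 and Fzd3 is written FRIZZLED3, and by the same position on the other arrays, whose numeric identifiers agreed for all 6. All 6 passed the filter on dim probes, which kept a probe that was detected in either channel on 2 or more arrays. The genes were picked because of their treated over vehicle ratios in these same arrays, so those ratios are described below without a p-value, and a count of genes past the threshold is given beside the share of all probes past it.

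Pregnant Wistar rats received EMD 82571, named a calcium sensitizer in the series title, at 50 mg/kg/day (low dose) or 150 mg/kg/day (high dose), or retinoic acid, the active form of vitamin A and a known teratogen. The protocol gives 12 mg/kg/day for retinoic acid and the sample labels 20 mg, and it names dosing windows from gestational day 6 to 11 and from day 6 to 17, in wording that does not say whether they follow the compound or the sampling day. Titles of the batch B and all day-20 retinoic acid arrays carry a 6 after RA that those of batch A lack, with no meaning stated, so on day 12 this difference and the array batch (a set of array numbers) cannot be told apart. On day 12 the whole embryo and the liver of the dam were sampled, and on day 20 the dam's liver and the bone and liver of the embryo, called maternal liver, embryo bone and embryo liver here. On every array RNA of treated animals was labelled with Cy5 and RNA of vehicle animals with Cy3, and the dyes were never swapped, so a dye effect on a gene and the treatment cannot be told apart. Of the 15 groups, the 2 day-12 tissues with retinoic acid had 4 arrays each and all others had 2. The design text names 5 control and 5 treated replicates, but whether replicate arrays carry separate animals, pools or repeats of the same RNA, and whether groups shared vehicle RNA, is not stated in the labels. The errors and p-values below therefore measure the spread between arrays, which may be technical.

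Foxj1 is a forkhead factor that drives the programme for motile cilia. Hoxa2 is a homeobox factor that patterns the hindbrain and the second branchial arch in the mouse, where its presence holds back skeleton formation in the arch. Pax9 is a paired-box factor of the sclerotome, and Foxc2 is a forkhead factor of mesenchyme that is needed for the mouse vertebral column. Wnt ligands such as Wnt10b, which favours bone formation in the mouse, act on Frizzled receptors such as Fzd3, which guides axons there. Retinoic acid binds nuclear receptors that pair with retinoid X receptors on DNA, and Hox genes are among their best known targets.

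Promoters are shown for Hoxa2 and Pax9, both of which were higher in embryo bone at the high dose of EMD 82571. They are the 250 bases before the transcription start, 5′ to 3′ on the strand of the gene, from RefSeq on build GRCr8, whose table matched 2 of the 6 genes. The Hoxa2 stretch is chr4:82595693-82595942 on the minus strand (45.2% G or C) and the Pax9 stretch is chr6:79921551-79921800 on the plus strand (56.0%). Capitals mark every match, on either strand, to 7 motifs that were searched.
Hoxa2: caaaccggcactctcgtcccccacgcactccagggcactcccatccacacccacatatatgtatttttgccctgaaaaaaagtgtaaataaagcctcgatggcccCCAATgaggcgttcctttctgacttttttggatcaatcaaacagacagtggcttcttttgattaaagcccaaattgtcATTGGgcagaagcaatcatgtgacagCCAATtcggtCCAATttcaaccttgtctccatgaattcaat
Pax9: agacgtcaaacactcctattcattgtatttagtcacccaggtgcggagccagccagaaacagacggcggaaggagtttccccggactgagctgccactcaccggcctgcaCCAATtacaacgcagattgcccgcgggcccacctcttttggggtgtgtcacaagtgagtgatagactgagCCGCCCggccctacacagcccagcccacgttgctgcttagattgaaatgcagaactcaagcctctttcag
Hoxa2 held the CCAAT box 4 times, starting 145, 67, 41 and 31 bases before the start, with the match at 67 on the opposite strand. At least 4 such matches were present in 0.565% of 33469 promoters of the same length, and at least 1 in 34%. Pax9 held CCAAT at 140 bases and the GC box GGGCGG on the opposite strand at 70 bases before the start, the latter being present in 30.5% of promoters. Neither stretch held AGGTCA, the retinoid receptor hexamer (14.1% of promoters), TGTTTAC, a forkhead site (3.21%), CTTTGA, the TCF/LEF core (13.9%), TAATTA, a homeodomain site (4.86%), or TATAAA, the TATA box (12.9%). No searched motif overlapped another in these stretches.

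Arrays held 604 to 976 unmarked spots, with 4 replicate spots for each probe, and 72% to 100% of probes were above background in at least 1 channel. Ratios of the arrays of a group correlated across probes with a mean r between 0.169 and 0.979. The lowest mean belongs to the day-12 whole embryo with retinoic acid, whose 4 arrays come from 2 of the 3 sets of array numbers (array batches A, B and C): r was 0.959 between its batch A arrays and 0.8 between its batch B arrays, but between -0.203 and -0.166 across the batches. Tissue labels were checked against markers in the vehicle channel. In embryo bone the cartilage collagen Col2a1 (log2 level 12.17 to 14.16), the bone matrix gene Spp1 (12.99 to 14.89) and the osteoclast protease Mmp9 (11.30 to 12.15) were above background on all 6 arrays. The liver factor Hnf4a lay between 10.20 and 11.79 in the 3 liver groups and between 6.59 and 6.96 in embryo bone. The hepatocyte genes Serpina1 (9.25 to 10.35) and A2m (8.16 to 8.74) were nevertheless above background on all 6 embryo bone arrays. Both were brighter in the livers, at 12.23 to 13.99 for Serpina1 and 14.21 to 15.19 for A2m.

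In the vehicle channel, 5 of the 6 genes were brightest in the day-12 whole embryo, and Wnt10b in day-20 embryo bone. Levels are log2 of the Cy3 intensity after background correction and normalization between arrays, so they compare tissues for one probe but not one probe with another. These are bulk samples, in which fewer cells of a type and less RNA per cell cannot be told apart. Differences were fitted with limma with array batch as a covariate, and 37 of the 60 pairs of tissues and genes (10 pairs of tissues for each gene) passed an adjusted p of 0.05. A batch held both tissues for 27 of these 37, all 27 had the same sign there and 26 passed within every such batch. The other 10 compare day 12 with embryo bone, which no batch held together. The vehicle channel is also the denominator of the ratios by which the genes were picked. The p-values of vehicle levels are therefore not independent of that choice.

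Foxj1 had a lowest, median and highest vehicle level of 7.59, 8.20 and 8.58 in the day-12 embryo, above background on 8 of 8 arrays. In embryo bone the same values were 6.90, 7.06 and 7.80 (6 of 6 arrays above background), and in embryo liver 6.34, 6.60 and 7.40 (5 of 6). Maternal liver was dimmest, at 6.07 to 6.43 on day 20 (3 of 6) and 6.05 to 6.59 on day 12, where no array of 8 was above background. The day-12 embryo was therefore at least 3.01-fold above day-12 maternal liver (limma adjusted p = 4.85e-13) and embryo bone at least 1.64-fold (adjusted p = 0.00079), where the bound is taken against the dimmest detected probes. Embryo bone exceeded embryo liver by 0.61 ± 0.18 (log2, SE; limma adjusted p = 0.0029), but by 0.35 (adjusted p = 0.0614) without the 2 bone arrays of retinoic acid, which carry the 2 highest bone levels. Embryo liver exceeded day-20 maternal liver by 0.46 (limma adjusted p = 0.021), but the difference passed in neither batch that held both tissues. Maternal minus embryo liver was -0.78 in batch B (limma adjusted p = 0.075) and -0.30 in batch C (adjusted p = 0.25). Of 7 alternative runs, 2 also missed the threshold.

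Hoxa2 had a lowest, median and highest level of 8.81, 9.14 and 9.85 in the day-12 embryo (8 of 8 arrays above background). No array of another tissue exceeded 7.45, and embryo bone was dimmest at 6.18, 6.43 and 6.83 (4 of 6). The embryo exceeded embryo bone by 2.63 ± 0.24 on the log2 scale (6.20-fold, limma adjusted p = 3.67e-11). Embryo liver, at 6.73 to 7.05, exceeded embryo bone by 0.42 ± 0.16 (limma adjusted p = 0.018), while maternal liver and embryo bone did not differ past the threshold on either day.

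Pax9 and Foxc2 shared an order in which the embryo of day 12 came first, bone second and the livers last. Pax9 had a lowest, median and highest level of 7.05, 7.86 and 8.26 in the embryo and of 7.02, 7.33 and 7.58 in bone, above background on every array of both. The embryo and bone ranges of Pax9 overlap, and their difference of 0.34 ± 0.22 did not pass (limma adjusted p = 0.18). Bone exceeded embryo liver by 1.02 ± 0.15 (2.03-fold, limma adjusted p = 1.48e-07) with no overlap of the arrays. Foxc2 was at 8.17, 8.33 and 8.60 in the embryo (8 of 8) and at 6.63, 6.81 and 7.56 in bone (5 of 6), a difference of 1.03 ± 0.20 (limma adjusted p = 5.67e-05). Neither gene was above background on any of 8 day-12 maternal liver arrays, which puts the embryo at least 2.44-fold higher for Pax9 (limma adjusted p = 3.67e-13) and at least 3.67-fold higher for Foxc2 (adjusted p = 8.22e-20). In day-20 maternal liver, Foxc2 was above background on the 2 batch B arrays (6.82 and 6.89) and on none of the 4 batch C arrays (5.92 to 6.10).

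Wnt10b was dim in the day-12 embryo, with 1 of 8 arrays above background and levels of 6.22 to 6.54. Its lowest, median and highest levels in embryo bone were 6.96, 7.19 and 7.74 (5 of 6 above background), with no overlap with embryo liver (6.30 to 6.85). Bone exceeded embryo liver by 0.87 ± 0.12 (1.82-fold, limma adjusted p = 1.41e-07) and day-20 maternal liver by 0.92 ± 0.12 (limma adjusted p = 3.52e-08). The Wnt receptor Fzd3 had the order of Pax9 and Foxc2, with 7.89, 8.81 and 9.07 in the embryo (8 of 8), 6.94, 7.22 and 7.60 in bone (5 of 6) and 6.14 to 6.80 in the livers. Bone exceeded embryo liver by 0.68 ± 0.17 for Fzd3 (limma adjusted p = 0.00076), and the 3 livers did not differ from each other past the threshold.

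All 6 genes passed between embryo bone and embryo liver, 5 of them higher in bone, where 73.6% of all probes passed. Counts were 5 of 6 for the day-12 embryo against day-12 maternal liver (81.9% of probes passed), day-20 maternal liver (75.9%), embryo liver (61.2%) and embryo bone (51.3%, with Wnt10b the one higher in bone). Embryo bone against maternal liver gave 5 of 6 on day 12 (72.8%) and on day 20 (80.3%). Between the livers, 1 of 6 passed for day-20 maternal against embryo liver (52.3%) and none for day-12 maternal liver against day-20 maternal liver (16.8%) or embryo liver (49.1%).

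**Figure D1:**
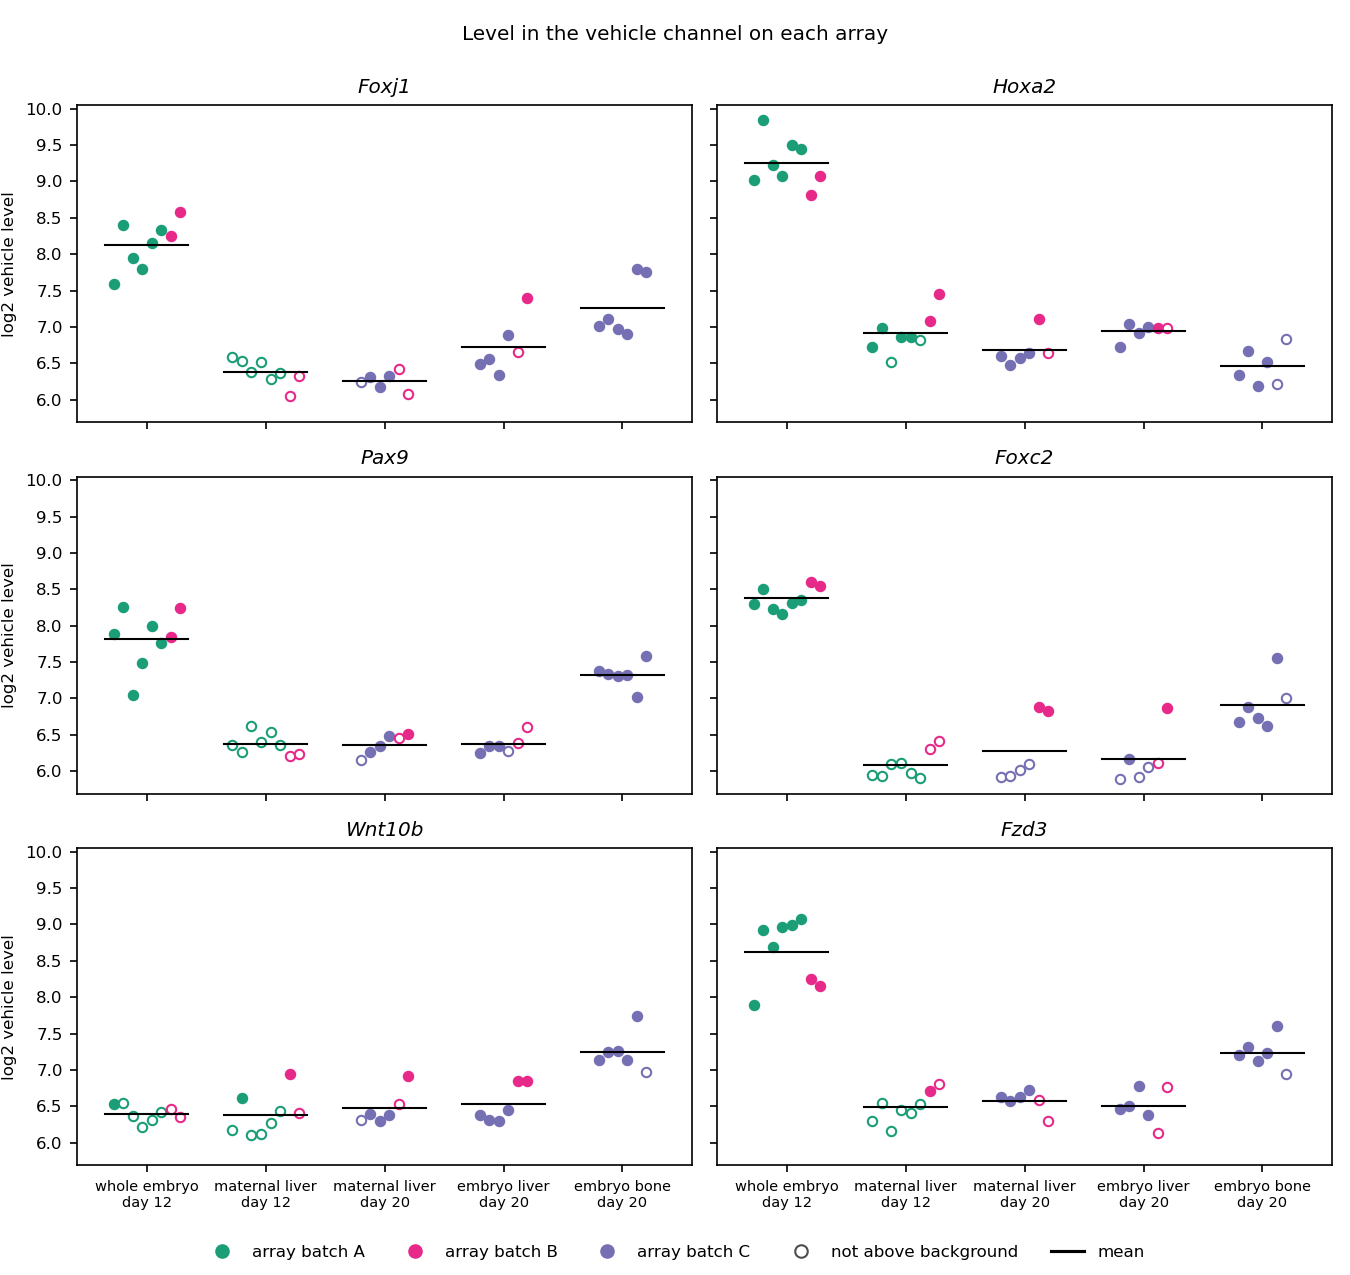
Vehicle (Cy3) level of each gene on each of the 34 arrays, as log2 normalized intensity, by tissue and day. Colours give the array batch, open points were not above background, and lines are means. The day-12 embryo has the highest mean for every gene but Wnt10b, whose highest mean is in embryo bone.

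Treatment ratios were widest in embryo bone, and Foxj1 and Hoxa2 led there. A ratio is log2 of treated over vehicle on an array after within-array loess, and a mean is given with the SE of the limma fit. At the high dose of EMD 82571, Foxj1 stood at 1.56 and 1.61 on its 2 bone arrays, a mean of 1.59 ± 0.12 or 3.00-fold. At the low dose it stood at 0.22 and 0.17, and with retinoic acid at -1.08 and -1.08, a mean of -1.08 ± 0.12 or 2.12-fold lower. The groups do not overlap, and the 2 compounds lie on opposite sides of 0. Foxj1 ranked 2nd highest of 238 probes at the high dose and 16th lowest of 235 with retinoic acid.

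The spot intensities split the same way before any normalization, but part of that split is shared by other probes. In the authors' deposited table the median log2 ratio over all probes was -0.49 and -0.64 on the retinoic acid bone arrays. It was -0.05 and 0.30 on the high-dose bone arrays. On the high-dose bone arrays, Foxj1 spots averaged 403 and 325 scanner units in the vehicle channel (local background 159 and 154) and 971 and 985 in the treated channel (153 and 146). On the retinoic acid bone arrays the vehicle channel read 588 and 541 (223 and 233) and the treated channel 242 and 207 (156 and 149). Both the spots and the background of the vehicle channel were thus brighter on the retinoic acid arrays, which were quantified in another session than the EMD 82571 bone arrays, and compound and session cannot be told apart. After normalization the vehicle level was 7.80 and 7.76 there against 6.90 to 7.11 on the 4 EMD 82571 arrays, and the treated level 6.75 and 6.70 against 8.53 and 8.52 at the high dose. Treated bone with retinoic acid thus lay below every vehicle level of bone. In the authors' deposited table, after centring each array on its median, Foxj1 in bone read 1.16 and 1.34 at the high dose and -1.03 and -0.60 with retinoic acid.

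High minus low dose for Foxj1 in bone came to 1.39 ± 0.17 and high dose minus retinoic acid to 2.67 ± 0.17 (6.36-fold). Embryo liver moved less, with ratios of 0.86 and 0.64 at the high dose (mean 0.75 ± 0.12, 1.68-fold), 0.02 and 0.13 at the low dose, and 0.38 and -0.20 with retinoic acid, where the vehicle channel of the first array was not above background. In embryo liver, high minus low dose was 0.68 ± 0.17, and it fell short of the threshold at 0.57 without the first high-dose array and at 0.62 without the first low-dose array. Embryo liver arrays of retinoic acid lie in batch B and those of EMD 82571 in batch C, so compound and array batch cannot be told apart there, and the difference of 0.66 fell to 0.37 without the second retinoic acid array. With the ratios of the authors' deposited table the embryo liver mean at the high dose was 0.34, high minus low dose 0.34 and high dose minus retinoic acid 0.50, none past the threshold. Bone minus embryo liver was 0.84 ± 0.17 at the high dose and -1.17 ± 0.17 with retinoic acid. The retinoic acid arrays of bone lie in batch C and those of embryo liver in batch B. Tissue and array batch therefore cannot be told apart in the difference with retinoic acid.

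In the day-12 embryo Foxj1 lay below 0 on all 8 arrays. Ratios were -0.30 and -0.47 at the low dose, -0.34 and -0.53 at the high dose, -0.58 and -0.67 with retinoic acid in batch A, and -0.05 and -0.27 in batch B. Batch B alone gave a mean of -0.16, which did not pass, against -0.62 in batch A. With array batch as a random block the low-dose mean was -0.24 and the high-dose mean -0.29, neither past the threshold, and both calls were also lost without either array of the group. The low-dose mean (-0.19) and the retinoic acid mean (-0.27) also missed it with the ratios of the authors' deposited table. In maternal liver both channels were above background on some array in 1 group alone, day 20 at the low dose, with ratios of 0.11 and -0.03.

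Hoxa2, which was dimmest in vehicle bone, rose there with EMD 82571. Its ratios were 1.51 and 1.14 at the high dose (mean 1.33 ± 0.09, 2.51-fold) and 0.70 and 0.66 at the low dose (mean 0.68 ± 0.09, 1.60-fold), with no overlap between the doses. High minus low dose was 0.65 ± 0.13, and it fell short of the threshold without the first high-dose array (0.46) or the second low-dose array (0.62). With the ratios of the authors' deposited table the low-dose mean was 0.30 and high minus low dose 0.57, neither past the threshold. With retinoic acid the ratios were 0.32 and -0.20, and the vehicle channel was not above background on either array. The treated over vehicle bound from the mean levels was 1.01-fold. In the authors' deposited table, after centring each array on its median, the 2 arrays read -0.21 and -0.26, so no direction is read. Treated levels were 7.70 and 7.66 at the high dose, 7.04 and 7.33 at the low dose, and 6.42 and 6.70 with retinoic acid. Those levels stayed under every vehicle level of the day-12 embryo (8.81 and up).

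Outside bone, Hoxa2 did not pass in any of 12 groups, with group means from -0.22 to 0.13. Its day-12 embryo ratios with retinoic acid were -0.04 and 0.01 in batch A and 0.24 and 0.27 in batch B, which do not overlap. Bone minus embryo liver was 1.49 ± 0.13 at the high dose and 0.61 ± 0.13 at the low dose, the latter missing the threshold without the second low-dose embryo liver array (0.55) and with the ratios of the authors' deposited table (0.39).

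**Figure D2:**
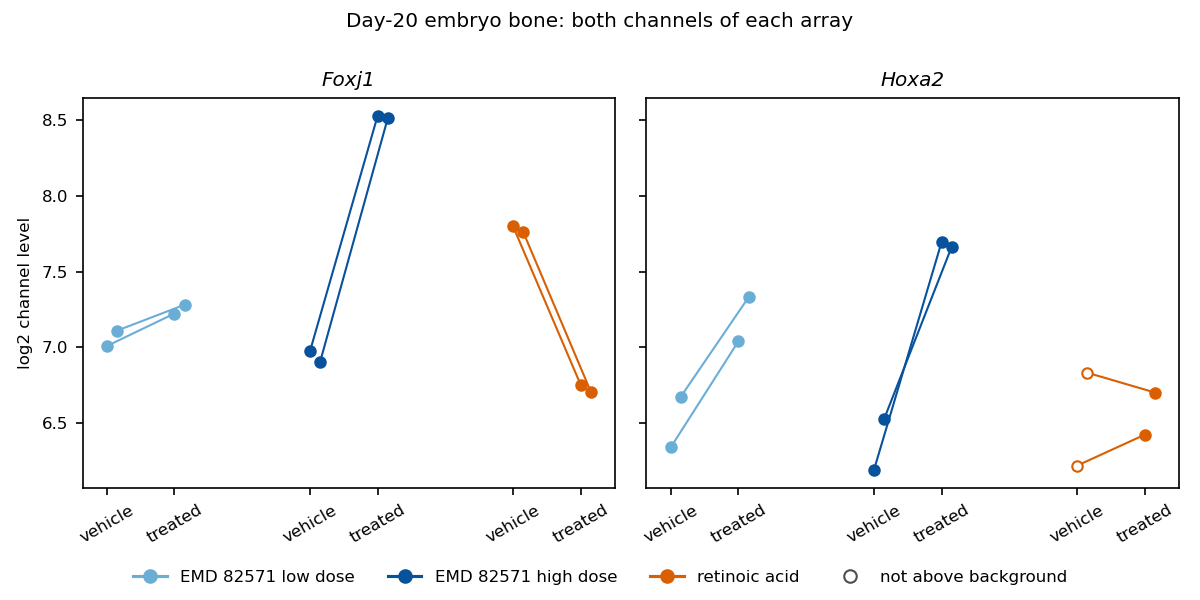
Foxj1 and Hoxa2 in day-20 embryo bone: log2 level of the vehicle and treated channel, joined for each array, with colours for the treatment and open points for channels not above background. Foxj1 goes up to 8.53 and 8.52 at the high dose and down to 6.75 and 6.70 with retinoic acid. The retinoic acid arrays start from a higher vehicle level, 7.80 and 7.76.

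Pax9 was above its vehicle on all 6 bone arrays. Ratios were 0.15 and 0.29 at the low dose, 0.43 and 0.37 at the high dose (mean 0.40 ± 0.10, 1.32-fold) and 0.66 and 0.42 with retinoic acid (mean 0.54 ± 0.10, 1.46-fold). Of the 6 genes it was the one to pass upward in bone with both compounds, and high dose minus retinoic acid was -0.14 ± 0.14, which did not pass. The high-dose mean missed the threshold without either array (0.37 and 0.43), and with the ratios of the authors' deposited table both means missed it (0.36 at the high dose and 0.17 with retinoic acid). Outside bone, in the 7 groups with both channels above background on some array, means ran from -0.19 to 0.21, and in the day-12 embryo with retinoic acid the batch A arrays read -0.25 and -0.23 and the batch B arrays 0.32 and 0.04. Bone minus embryo liver was 0.42 ± 0.14 at the high dose and lost its call without any single array of either group (0.37 to 0.47) and with the authors' deposited table (0.39).

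Foxc2 stood at 0.32 and 0.28 in bone at the low dose (mean 0.30 ± 0.06) and at 0.43 and 0.49 at the high dose (mean 0.46 ± 0.06, 1.37-fold). With retinoic acid it stood at -0.30 and -0.21 (mean -0.25 ± 0.06, 1.19-fold lower), where the vehicle channel was above background on 1 of 2 arrays. The EMD 82571 and retinoic acid arrays lie on opposite sides of 0, and high dose minus retinoic acid was 0.71 ± 0.09. The low-dose call was lost without either low-dose array and the retinoic acid call without the first retinoic acid array (-0.21), and both with array batch as a random block. With the ratios of the authors' deposited table the means were 0.06, 0.33 and -0.27 for low dose, high dose and retinoic acid, none past the threshold. In the livers Foxc2 gave no ratio in 3 groups and no array there had both channels above background, while its day-12 embryo means ran from -0.13 to 0.13. With retinoic acid the embryo arrays read -0.07 and -0.24 in batch A and -0.11 and -0.05 in batch B.

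Wnt10b lay below its vehicle on all 6 bone arrays. It stood at -0.40 and -0.44 at the high dose (mean -0.42 ± 0.10, 1.34-fold lower), at -0.08 and -0.10 at the low dose, and at -0.56 and -0.16 with retinoic acid (mean -0.36 ± 0.10). The retinoic acid mean rested on the first array, since the second alone gave -0.16 and did not pass, and the high-dose call was lost without the second array (-0.40) and with the ratios of the authors' deposited table (-0.27). Both calls were also lost with array batch as a random block. In embryo liver with retinoic acid, the vehicle channel read 6.85 and 6.85 and the treated channel was not above background, a bound of at least 1.25-fold lower (0.32 on the log2 scale) in this processing. The authors' deposited table gave a smaller drop, at -0.15 and -0.14 after centring each array on its median. In day-12 maternal liver with retinoic acid all 4 arrays were below 0 (-0.33 to -0.15, mean -0.21), with 1 vehicle channel of 4 above background, and the call was lost without the second (-0.18) or the third array (-0.21), in batch A alone (-0.25), in batch B alone (-0.18), with array batch as a random block and with the authors' deposited table (-0.17). Bone minus embryo liver was -0.42 ± 0.14 at the high dose, with the call lost without either bone array or without the first embryo liver array (-0.44 to -0.29), or with the authors' deposited table (-0.20).

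Fzd3 was above its vehicle on all 4 day-12 embryo arrays of EMD 82571. Ratios were 0.30 and 0.35 at the low dose (mean 0.32 ± 0.10, 1.25-fold), a call lost without either array and, with median pixel intensities, at 0.18, and 0.21 and 0.24 at the high dose. With retinoic acid the embryo arrays read -0.06 and -0.05 in batch A and -0.03 and 0.28 in batch B. The low-dose call was also lost with array batch as a random block (0.39) and with a fit of the day-12 embryo alone (0.32). In bone Fzd3 read 0.03 and -0.09 at the low dose, 0.18 and 0.22 at the high dose, and -0.53 and -0.17 with retinoic acid (mean -0.35 ± 0.10), the last losing its call without the first array (-0.17) and with array batch as a random block. The high-dose mean of 0.20 did not pass. High dose minus retinoic acid in bone was 0.55 ± 0.15, and 0.37 without the first retinoic acid array, which did not pass.

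**Figure D3:**
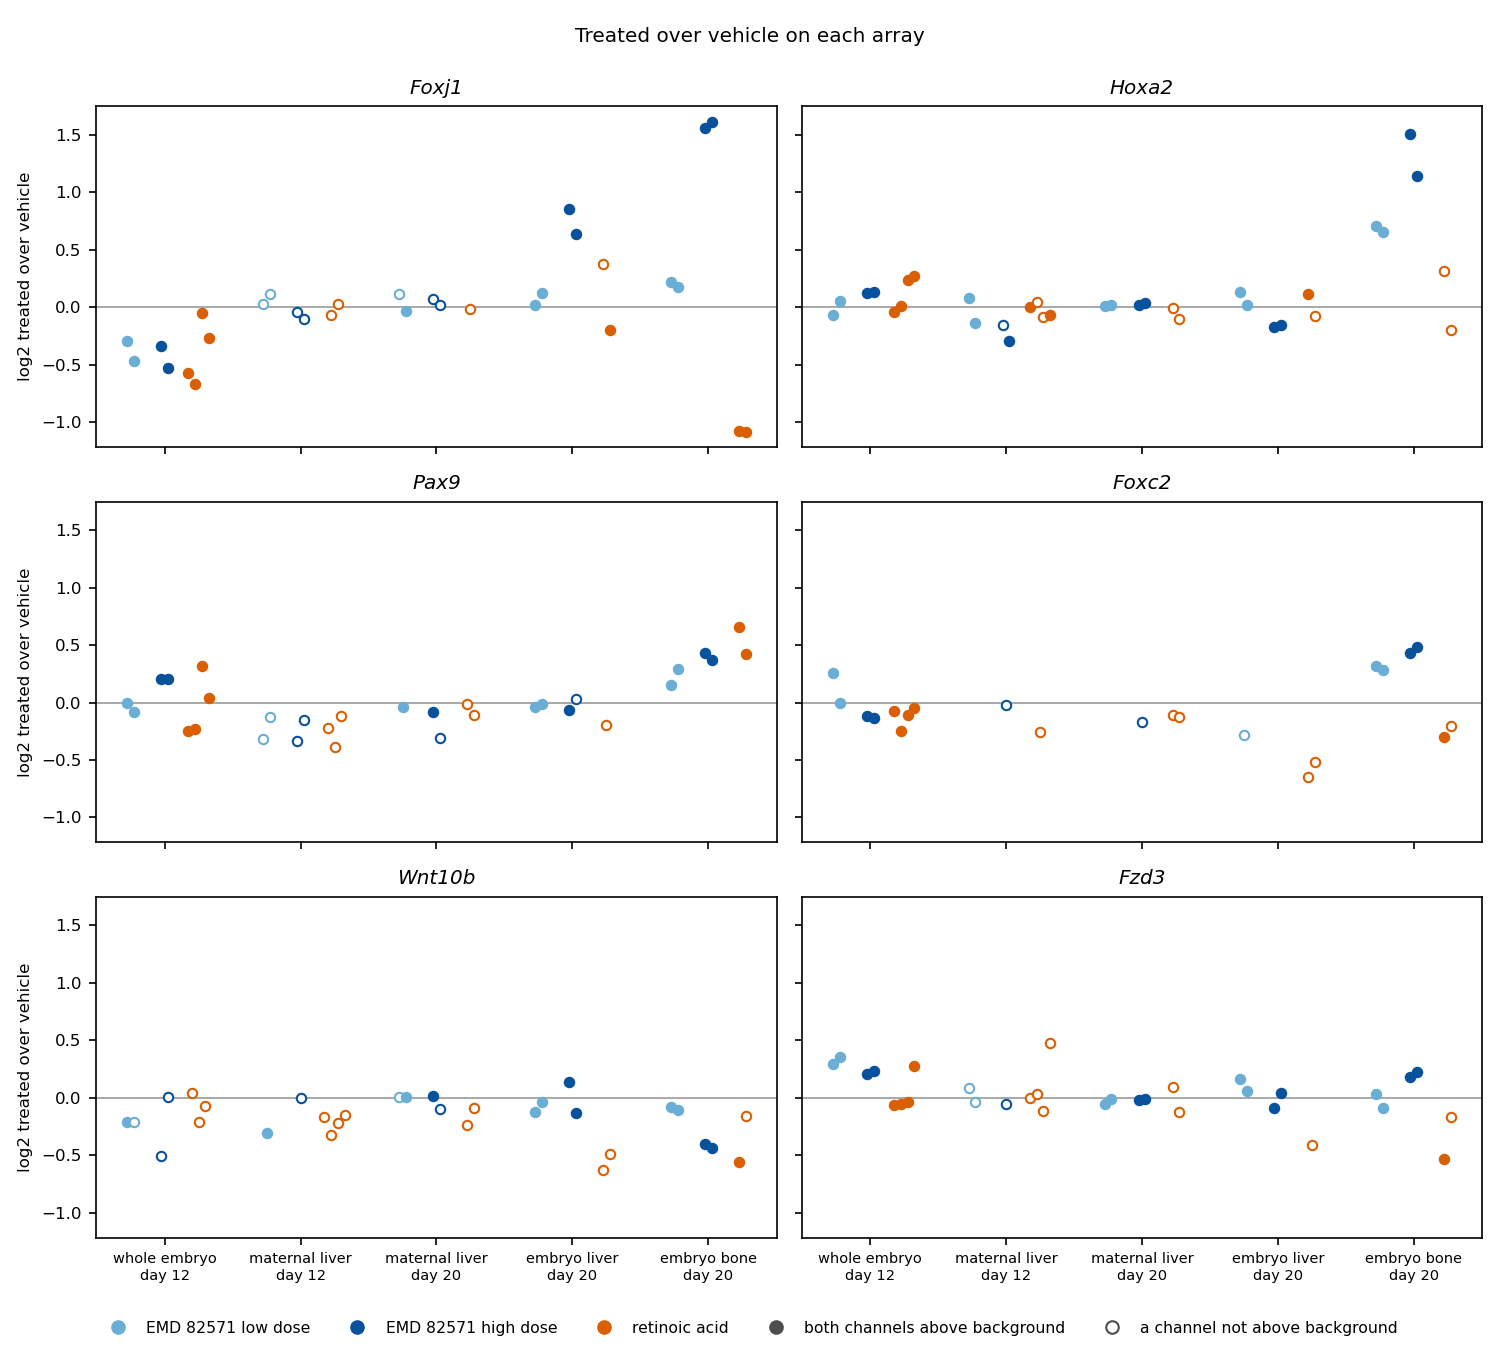
Log2 treated over vehicle of each gene on each array with a value, by tissue and day, with colours for the treatment and open points where a channel was not above background. Foxj1 and Hoxa2 in embryo bone reach the highest ratios (1.61 and 1.51), and Foxj1 with retinoic acid in bone the lowest (-1.08).

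Over the 15 groups, 23 of 87 ratios of the 6 genes passed, 9 higher and 14 lower than vehicle. In 5 of the 23 a channel was above background on no array of the group, which leaves 18 with a fold. The 5 are Pax9 and Foxc2 in day-12 maternal liver and Foxc2, Wnt10b and Fzd3 in embryo liver, all with retinoic acid. By gene, 6 groups passed for Foxj1, 2 for Hoxa2, 3 for Pax9, 5 for Foxc2, 4 for Wnt10b and 3 for Fzd3. In embryo bone 2 of 6 passed at the low dose (12.2% of all probes), 5 of 6 at the high dose (31.1%) and 5 of 6 with retinoic acid (53.6%). In embryo liver the counts were 0 of 6 (12.6%), 1 of 5 (38.7%) and 3 of 6 (50.4%), and in the day-12 embryo 2 (15.1%), 1 (6.9%) and 1 of 6 (34.1%). In maternal liver, 3 of 6 passed with retinoic acid on day 12 (28.9%) and none in the other 5 groups (14.3%, 20.7%, 10.1%, 7.11% and 20.1%). For high minus low dose, 3 of 27 differences passed, 2 of them in bone (5.04% of probes) and 1 in embryo liver (10.9%), with none in the day-12 embryo (0.913%) or in maternal liver on day 12 (7.79%) and day 20 (3.36%). For high dose minus retinoic acid, 6 of 29 passed, 4 in bone (64.1%) and 2 in embryo liver (41.4%), with none in the day-12 embryo (11.2%) or in maternal liver on day 12 (13.4%) and day 20 (7.86%). Between tissues or days 13 of 67 passed, of which bone minus embryo liver held 2 at the low dose (10.1%), 4 at the high dose (38%) and 3 with retinoic acid (49.6%). Embryo liver minus maternal liver on day 20 held 0 at the low dose (13.9%), 1 at the high dose (30.7%) and 2 with retinoic acid (28%), and embryo minus maternal liver on day 12 held 0 (10.6%), 1 (15.5%) and 0 (24.1%). Maternal liver on day 20 minus day 12 held none (14.3%, 12.5% and 21%). The genes were selected on these ratios, so nothing is read from these counts.

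**Figure D4:**
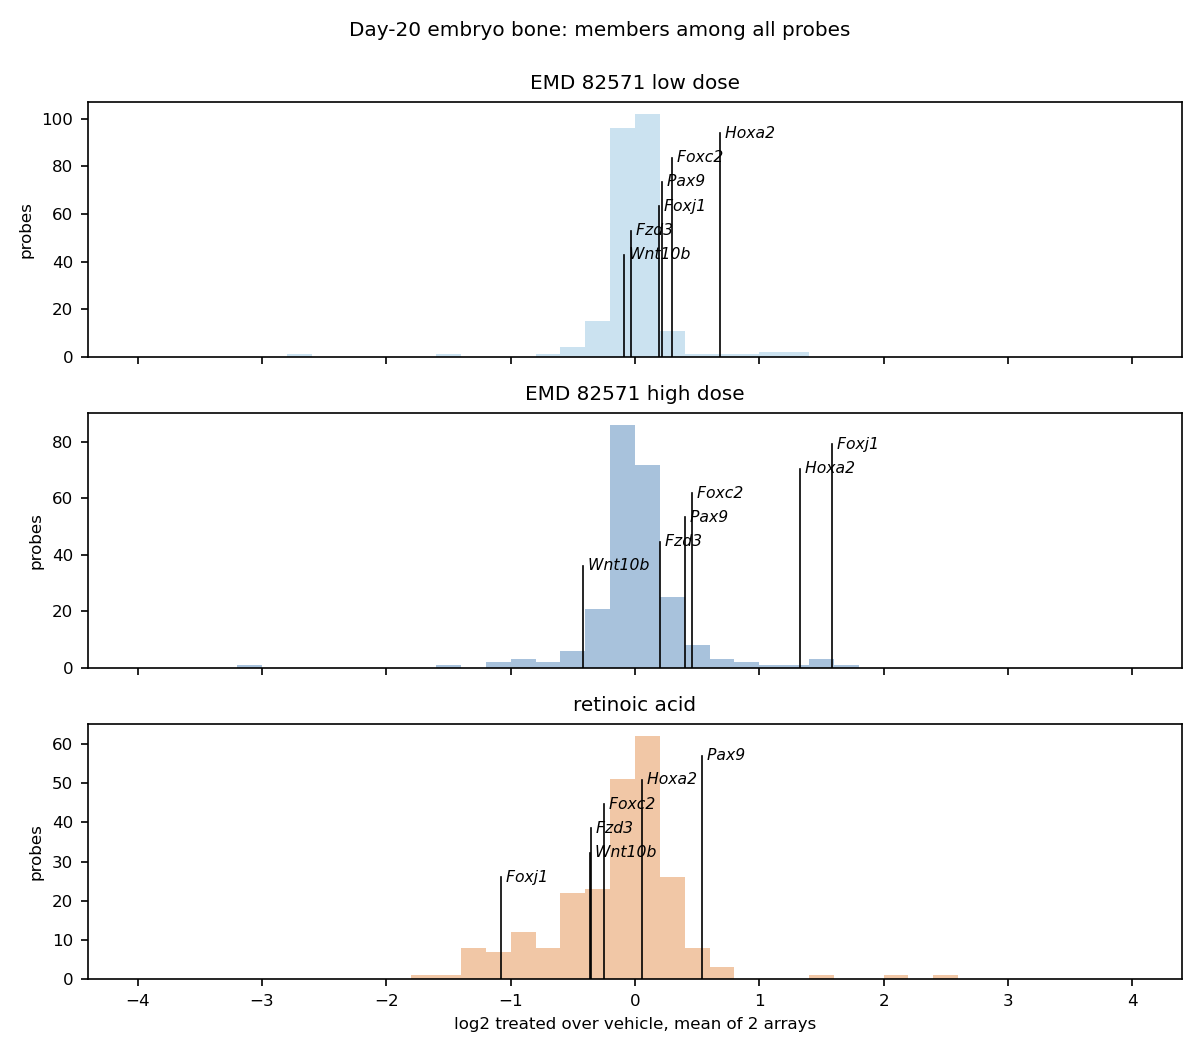
Number of probes by log2 treated over vehicle in day-20 embryo bone, mean of 2 arrays, for the 3 treatments, with the 6 genes marked. Foxj1 and Hoxa2 lie in the upper tail at the high dose (1.59 and 1.33), and Foxj1 lies in the lower tail with retinoic acid (-1.08).

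The related genes on the array were few, and their counts in bone stand beside 12.2% of all probes past the threshold at the low dose, 31.1% at the high dose and 53.6% with retinoic acid. Of other forkhead factors it held Foxa1, Foxa2 and Foxa3, which specify endoderm and liver. In bone Foxa1 rose at the high dose (0.30 ± 0.05) and fell by 0.40 ± 0.05 on the log2 scale with retinoic acid, the same signs as Foxj1 and Foxc2. All 3 Foxa genes passed downward with retinoic acid, where 53.6% of all probes passed (Foxa2 at -0.95 and -0.23, Foxa3 at -0.58 on the one array with a value), each with its vehicle channel above background on 1 of 2 arrays, and the list had a median of -0.58 beside -0.04 for all probes. In embryo liver Foxa1 passed downward with all 3 treatments (-0.17, -0.45 and -0.28), where Foxj1 stood at 0.07, 0.75 and 0.09. Foxa3 passed upward there at the high dose (0.35 ± 0.11), the same sign as Foxj1, and Foxa2 passed with no treatment. Of paired and homeobox factors the array held Pax3, a factor of neural crest and muscle precursors, which passed in bone at the high dose at 0.21 ± 0.07.

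Bone morphogenetic proteins, ligands that induce cartilage and bone, were represented by Bmp2, Bmp4, Bmp5 and Bmp7. In bone 2 of 4 passed upward at the low dose (12.2% of all probes passed in either direction), 2 at the high dose (31.1%) and 3 with retinoic acid (53.6%), and none downward. Bmp5 stood at 0.45, 0.62 and 0.29 and Bmp7 at 0.15, 0.48 and 0.18 for low dose, high dose and retinoic acid. Of 5 retinoid genes, Crabp2, a carrier of retinoic acid into the nucleus, passed at the high dose (0.54 ± 0.14), and the receptors Rxra (-0.72 ± 0.09) and Rarg (-0.35 ± 0.06) passed downward with retinoic acid, while Rara and Rarb did not pass in bone. The one other gene of the Wnt list, the adhesion protein Cdh1, did not pass in bone (-0.19, -0.21 and 0.09).

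Markers of cell types moved in the same bone arrays. Of 4 cartilage genes (Col2a1, Col9a1, Col11a1 and Acan), 3 passed upward at each dose of EMD 82571, with a list median of 1.02 at the low and 1.16 at the high dose. With retinoic acid none passed upward and 2 downward (median -0.16). Summed over the 4 genes on the linear scale, the vehicle level was 8980 to 13740 and the treated level 18010 to 25810 at the low dose, and 21410 to 22740 against 17870 to 18850 with retinoic acid. At the high dose 2 of the 4 had a value on both arrays, and their sum went from 6077 to 7714 in vehicle to 17330 to 19730 in treated bone. In bone Hoxa2 and 3 of the 4 cartilage genes were thus raised at both doses, while Foxj1 was at 0.19 at the low dose, where Col2a1 was at 1.25.

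Of 9 hepatocyte genes, 2 passed downward in bone at each dose and none upward, namely Serpina1 (-2.79 and -3.06) and A2m (-1.53 and -1.42), both secreted plasma proteins. Their list summed to 1986 to 2317 in vehicle and 946.9 to 1003 in treated bone at the low dose, and to 1820 to 1988 and 837.7 to 925.8 at the high dose. With retinoic acid 3 passed upward and 4 downward, with sums of 1834 to 1838 and 3146 to 3228, A2m at 2.13, and 4 of the 9 above background on neither vehicle array. Mmp9 stood at -0.54, -1.10 and -0.03 for low dose, high dose and retinoic acid, the bone matrix gene Spp1 at -0.35, 0.01 and 0.00, the neural gene L1cam at -0.38, 0.25 and -1.35, and the muscle gene Acta2 at 0.14, 0.03 and 0.30. Of 4 endothelial genes, none passed with EMD 82571 and 1 passed upward with retinoic acid, and no erythroid marker was on the array. In embryo liver at the high dose, where Foxj1 was at 0.75 and Hoxa2 at -0.17, 2 of 4 cartilage genes passed upward, with Col2a1 at 2.04. The cartilage list sum there went from 361.8 to 384.7 in vehicle to 693.7 to 796.7 in treated embryo liver. In the day-12 embryo, where Foxj1 was below 0, the 9 hepatocyte genes summed to 1224 to 1235 in vehicle and 982.6 to 1035 in treated embryos at the low dose, with 4 of 9 passing downward. At the high dose they summed to 1275 to 1284 and 1061 to 1096, with 1 passing downward. With retinoic acid 4 passed upward and 1 downward, and the sums went from 1228 to 1252 in vehicle to 1629 to 1819 in batch A and from 1207 to 1322 to 1997 to 2016 in batch B. The batches differed by gene, with Hnf4a at a mean of 1.20 in batch A and -0.01 in batch B, A2m at -0.43 and 1.89, and Serpina1 at 1.22 and 0.66. Of the cartilage genes, Col9a1 and Acan passed downward there with retinoic acid, with Col9a1 at -0.57 in batch A and 0.04 in batch B and Acan at -0.23 in both. L1cam passed downward (-0.50 and -0.12 by batch) and Acta2 upward (0.84 and -0.0033). Of the 4 endothelial genes 2 passed upward at the low dose, 1 at the high dose and 2 with retinoic acid in the day-12 embryo, and none downward. The part of these markers in the values of the 6 genes was not tested.

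Likeness of pattern was measured as Pearson's r of the 15 group means with each of 207 other probes that had a mean in every group. The means share arrays and the fixed dyes, so r is a description. Foxj1 was most like Col9a3, a cartilage collagen (r = 0.87), Mmp11 (0.83) and Gps1 (0.81). Col9a3 stood at 1.15, 1.46 and -0.99 in bone for low dose, high dose and retinoic acid, so it differed from Foxj1 (0.19, 1.59 and -1.08) most at the low dose. Hoxa2 was most like Bmp5 (0.89), the plasminogen activator Plat (0.87) and Hapln1, a link protein of cartilage matrix (0.84). Pax9 had Plat (0.74), Bmp5 (0.70) and the laminin Lamb1 (0.70) in its first places, 2 of them shared with Hoxa2. For Wnt10b the closest were the probe named CBFA1 (0.76), Calb1 (0.73) and Itga2 (0.66), and for Fzd3 they were Ugt2b7 (0.79), the probe named TENASCINR (0.79) and Ntrk3 (0.78). CBFA1 was kept under its name in the spot files and so entered neither the patterning nor the osteoblast list above. It stood at -0.08, -0.43 and 0.03 in bone for low dose, high dose and retinoic acid. Foxc2 had means in 12 groups and was not compared.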

How the data were processed

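Spot intensities of 34 PIQOR cDNA arrays were deposited per channel (Cy3 vehicle, Cy5 treated), with local background and its SD in columns of their own, and per the file headers come from image quantification with a fixed circle. A deposited table holds log2 ratios, which followed the unsubtracted ratio of the spot files (r 0.509 to 0.99) with column medians of -0.704 to 0.334. Other upstream steps are not given in the sources used here. No genome build is named for the arrays.

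Mean pixel intensities were corrected with normexp (offset 50), turned into log2 Cy5 over Cy3 and normalized by global loess in limma 3.58.1 under R 4.3.3. Spots marked in the files (766 by hand, 4521 dim, 636 uneven, against 28893 unmarked, codes read from their pattern) were left out and the 4 replicate spots averaged. For levels, dim spots were kept and arrays brought to the same mean-intensity distribution (Aquantile). A spot was above background where it exceeded the local background by 2 SD, and a probe where a share of at least 0.5 of its spots did. Where a channel was above background on no array of a group, a bound is given if it exceeds 1-fold, and otherwise no fold.

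One limma fit held 15 group means over all arrays, and another the vehicle levels with array batch. Each test was two-sided, with p adjusted by Benjamini-Hochberg over all probes of its contrast (up to 239) and a threshold of 0.05. The fit was tested on simulated data. Positions whose identifiers differ between array batches (10) were not used there, and 7 probes entered from batch C alone. Replicate numbers follow accession order. Named genes were the 6 members, the 3 probes most like each, every measured gene of pathway lists and cell type markers. Members, lists and tests were chosen with earlier results of these data known. Alternatives changed background correction, normalization, dim-probe filter, arrays, batch or session handling and source of ratios. Keeping dim spots, median pixels, session terms and leaving out the retinoic acid bone arrays were added after seeing the data.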

Additional observations from a re-analysis of the deposited data

Results flagged for a closer look

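In 4 of 38 sets of 4 to 8 arrays 1 value lay far from the others, where chance marks about 1 in 20 sets. The Hoxa2 vehicle level was 7.11 on the first retinoic acid array of day-20 maternal liver, against 6.48 to 6.65 on the other 5. The Foxc2 vehicle level was 6.86 on the second retinoic acid array of embryo liver, against 5.89 to 6.17. The Fzd3 vehicle level was 6.29 on the second retinoic acid array of day-20 maternal liver, against 6.58 to 6.72. All 3 arrays belong to batch B. The Fzd3 ratio was 0.28 on the fourth retinoic acid array of the day-12 embryo, against -0.06 to -0.03.

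Responses differed between embryo bone and embryo liver, by the fitted difference itself, in 9 cases. In 3 of these (Pax9 with retinoic acid, Foxc2 at the low dose and with retinoic acid) a channel was above background on no embryo liver array, and no value is given. Foxj1 differed by 0.84 at the high dose and -1.17 with retinoic acid, Hoxa2 by 0.61 at the low and 1.49 at the high dose, Pax9 by 0.42 and Wnt10b by -0.42 at the high dose, each as bone minus liver on the log2 scale. With retinoic acid the bone arrays lie in batch C and the embryo liver arrays in batch B, so tissue and array batch cannot be told apart there. With the ratios of the authors' deposited table Hoxa2 at the low dose (0.39), Pax9 (0.39) and Wnt10b (-0.20) fell short of the threshold.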

How the results depend on the processing

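Treated and vehicle RNA were compared within each array, but arrays could not be paired across groups because the labels give no replicate numbers. None of the 31 ratios and ratio differences or 37 vehicle differences followed through the alternative runs turned its direction. The 5 ratios past the threshold with a channel above background on no array were not followed. Among these, Pax9 in day-12 maternal liver with retinoic acid lay on both sides of 0 in the authors' deposited table. It read -0.08, -0.54, 0.40 and 0.26 there after centring each array on its median. Of 425 alternative values for 31 ratios past the threshold, 364 stayed past it and 61 did not. Leaving out an array in turn kept 61 of 92. For 37 differences in vehicle level, 251 of 259 alternative values stayed past it. Foxj1 in bone at the high dose and with retinoic acid, and Hoxa2 in bone at the high dose, were past it under every alternative run. The genes were picked on these same ratios, so staying past it is no support for them. No run separates treatment from the fixed dyes, or retinoic acid in bone from its session of quantification. Against 23 ratios past it, the count was 15 when probes had to be above background in both channels on every array, 12 with array batch as a random block, 12 with the session of quantification as one (chosen after seeing the data) and 10 with the deposited ratios. Dose differences went from 3 to 1 with the deposited ratios, compound differences from 6 to 1 with probes above background everywhere, and tissue differences from 13 to 4 with that filter and 6 with the deposited ratios. Without 1 array the counts ran from 20 to 25, 2 to 3, 4 to 7, 11 to 15 and, for vehicle levels, 35 to 39. Foxj1 in the day-12 embryo lost its call at both EMD 82571 doses with either random block, with median pixels and with a fit of that tissue alone. Over all probes, the count past the threshold in bone was 74 at the high dose (36 to 108 over alternatives), 29 at the low dose (15 to 56) and 126 with retinoic acid (60 to 160). In embryo liver at the high dose it was 92 (40 to 125), and in the day-12 embryo 33 at the low dose (0 to 109), 16 at the high dose (0 to 66) and 79 with retinoic acid (2 to 126). The causes were not tested. Low signal limits Foxc2 and Wnt10b most, with the vehicle channel above background on 17 and 18 of 34 arrays.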
